A study of Mus musculus with 12 samples.

Results

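The transcripts of 39 complement and coagulation proteins were examined in the liver of hepatocyte-specific Phgdh knockout mice. They comprise 19 complement genes and 20 genes of blood coagulation and its control, listed by the function of their proteins, out of 16915 genes that could be tested. All 39 matched a probe by its RefSeq accession and passed the filter on dim signals on every array. Liver RNA was labeled with a single dye and hybridized to 12 Agilent arrays, 1 mouse per array.

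LKO mice carried Alb-Cre and Phgdh flox/flox, so that the albumin promoter drove the recombinase in hepatocytes and Phgdh, the enzyme that commits a glycolytic intermediate to serine synthesis, was kept in the other liver cells. Floxed mice were littermates with Phgdh flox/flox and no Cre. Each group held 6 male C57BL/6 mice, 30 weeks old, on chow with 20% casein. Without a group that carries Cre and intact Phgdh, the effects of the recombinase and of the deletion cannot be told apart. The labels name separate animals, but not their litters.

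Complement is a cascade of plasma proteins that recognizes microbes, immune complexes and damaged cells, cuts C3, and can end in a pore in the target membrane. Coagulation is a cascade of serine proteases and cofactors that turns fibrinogen into a fibrin clot, held in check by anticoagulant proteins and dissolved by plasmin. Hepatocytes make most of both sets and secrete them into the blood, and several are raised in the acute phase of inflammation. Exceptions in the liver are C1q, which macrophages make, and factor VIII, which sinusoidal endothelial cells make.

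None of the 39 transcripts differed between LKO and Floxed livers at an unadjusted limma p below 0.05, the threshold of the study's array methods and the one by which a gene is named called here. That criterion was met by 8.35% of all tested genes and by 2.07% of the brightest 20% of them, to which 29 of the 39 belong. In LKO mice 4.92% of all tested genes were higher and 3.43% lower by it, and 0% passed after Benjamini-Hochberg adjustment over all genes. Replacing quantile normalization by a 75th percentile scaling of the arrays raised the share of higher genes among those called from 58.9% to 78.1%, and again called no member. Limma adjusted p values of the members ran from 0.714 to 0.999. No member had LKO and Floxed values that did not overlap, against 0.296% of all genes measured on every array.

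Complement transcripts had a median difference of -0.05 on the log2 scale (LKO minus Floxed), with 14 lower and 5 higher in LKO mice. Coagulation transcripts had a median of -0.06, with 15 lower and 5 higher. Within slide 2, the 1 slide with both genotypes, the complement median was 0.04 and the coagulation median -0.02, and 20 of the 39 members changed sign. With 1 array left out the complement median ran from -0.11 to -0.02. Over all tested genes the median was -0.00347 and 48.8% were higher. For the mean over the members of a set, the genotypes differed by -0.06 for complement and -0.05 for coagulation over the 12 arrays. The SD of that mean between mice of a genotype was 0.12 for complement and 0.0961 for coagulation. This SD is the spread of single mice and not the error of a difference between groups.

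The 39 intervals bound how large a genotype difference these arrays leave room for. Each is from the brightest probe of its gene, so the second Fga probe, at -0.74 ± 0.57 (SE), is not among them. All 39 of the 95% intervals lay inside a 2-fold change in either direction and 36 inside 1.5-fold. The 3 that reached beyond 1.5-fold were C6, C8a and Fga, each on the side of lower values in LKO mice. These intervals take the 12 arrays as one batch. With the slide as a block the median distance from the estimate to the end of the interval grew from 0.23 to 0.40. Of these intervals 38 of 39, all but C8a, lay inside 2-fold. The estimate with the block is the difference within slide 2, where the reading of Phgdh, from a dim probe, differed by only -0.05. How far the intervals with the block bound an effect of the deletion therefore cannot be told. In bulk liver, fewer cells of a type and less RNA per cell cannot be told apart.

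**Figure D1:**
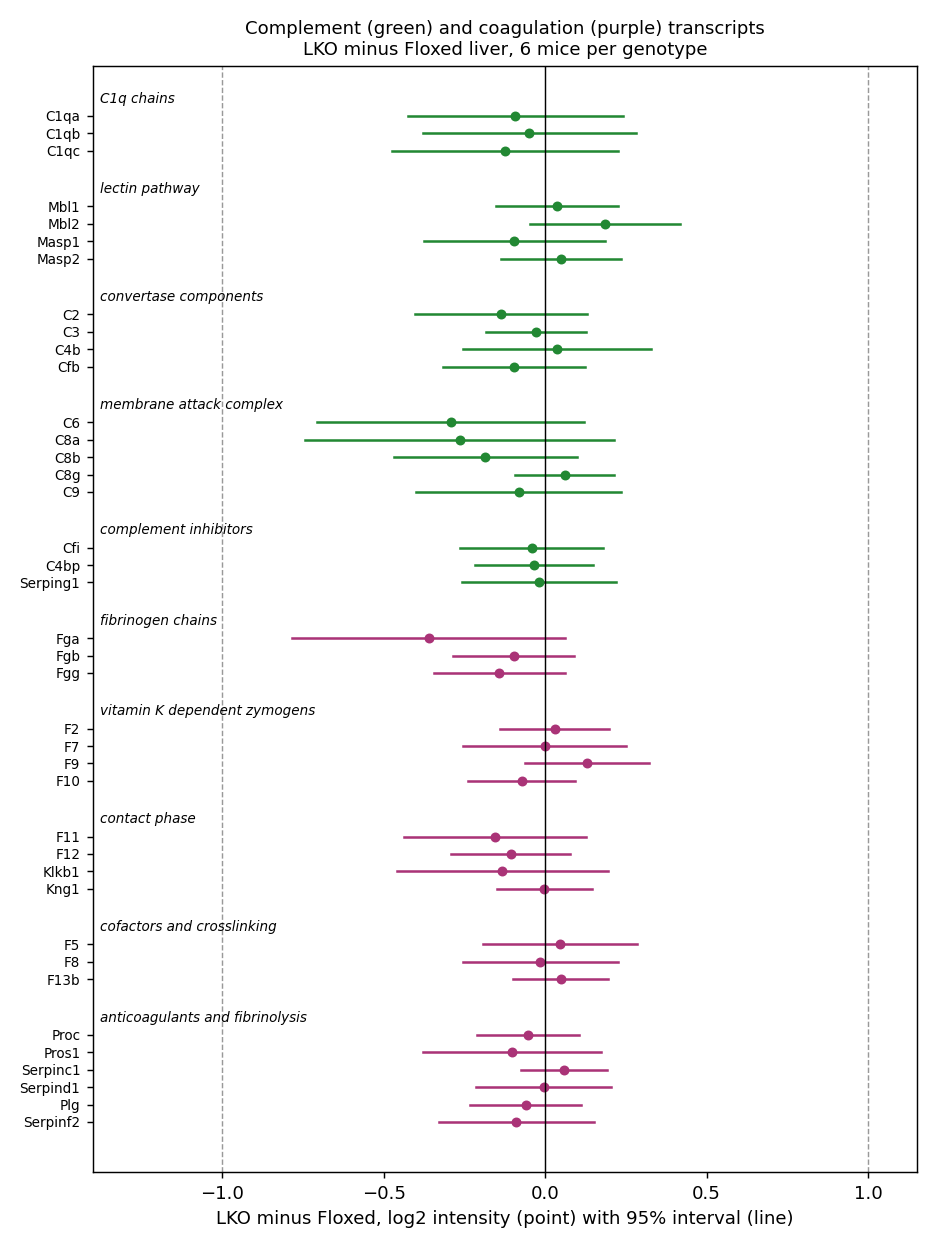
LKO minus Floxed difference of each complement (green) and coagulation (purple) transcript on the log2 scale (x axis, points) with its 95% limma interval (lines), 6 mice per genotype, grouped by role (y axis). Each gene is shown by its brightest probe. Every interval includes 0, and none reaches the dashed lines, which mark a 2-fold change.

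Some properties of the arrays bear on these values. The arrays lay on 3 slides of 4. Slide 1 held Floxed mice 1 to 4, slide 2 Floxed mice 5 and 6 with LKO mice 1 and 2, and slide 3 LKO mice 3 to 6, so that slide 2 alone holds both genotypes. Phgdh ranged from 4.81 to 5.50 in Floxed mice and 4.23 to 5.30 in LKO mice. The arrays labeled LKO 1 (5.07) and LKO 2 (5.30) lay within the Floxed range, and LKO 3 to 6 (4.23 to 4.66) lay below it. Within slide 2 Phgdh differed by -0.05, against -0.48 ± 0.18 (SE, limma adjusted p = 0.451) over all mice. Its probe read lower than every member. The values within slide 2 given above and below thus compare mice whose Phgdh reading hardly differed on this dim probe. Where the probe lies relative to the deleted exons was not checked. Between 21614 and 24252 of 39429 probes per array were well above background. The 75th percentile of the processed intensity was lowest for LKO 5 (239) and Floxed 2 (258) and ran from 283 to 473 on the others, before normalization. Among 11 measured hepatocyte markers 0 were called, 3 were higher in LKO mice, and the median difference was -0.06, close to the medians of the members. The part of this in the members' differences was not tested. Alb, 1 of the higher ones, read 18.29 to 18.54 in Floxed mice and 18.45 to 18.63 in LKO mice. No set of cell type markers had more than 1 called member, namely Pecam1 among 12 endothelial genes and Cel among 4 measured pancreatic acinar genes, both higher in LKO mice. Within slide 2 their differences were 0.04 and 0.27. The acinar markers Cpa1, Pnlip and Prss2 were not well above background on all arrays.

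Of the complement genes, those that recognize a target come first. C1q, which binds antibody complexes and starts the classical pathway, is a bundle of A, B and C chains encoded by C1qa, C1qb and C1qc. The lowest, median and highest log2 intensities of C1qa were 10.13, 10.33 and 10.96 in Floxed mice and 10.004, 10.29 and 10.68 in LKO mice. For C1qb the same values were 9.58, 9.86 and 10.46 in Floxed mice and 9.52, 9.88 and 10.20 in LKO mice. For C1qc they were 11.39, 11.69 and 12.16 and 11.08, 11.58 and 11.95. The genotypes overlapped over nearly their whole ranges, with Floxed 3 the highest and LKO 4 the lowest mouse for all 3 chains. The differences were -0.09 ± 0.15 (SE), -0.05 ± 0.15 (SE) and -0.13 ± 0.16 (SE) for the A, B and C chains, with limma adjusted p of 0.969, 0.977 and 0.952.

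The C1q chains varied with the macrophage markers from mouse to mouse. The mean deviation of 10 macrophage markers, among them the Kupffer cell genes Clec4f, Cd5l and Vsig4, ran from -0.45 to 0.84 in Floxed mice and -0.70 to 0.56 in LKO mice on the log2 scale. Its Pearson correlation with the mean deviation of the C1q chains was 0.92 over the 12 arrays (permutation p = 2e-05, adjusted p = 0.00012), Spearman's rho was 0.87 (permutation p = 0.00034), and r was 0.79 without Floxed 3 and LKO 4. None of the 10 macrophage markers was called between genotypes. Marco had the widest range of the 10, from 8.53 to 13.51, and was highest in Floxed 3 (13.51) and LKO 6 (13.29). Those were also the highest mice of their genotypes for the mean of the markers. The relation without Marco was not computed.

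The sequence before the transcription start is shown for the chains whose levels moved together and whose promoters were found. In the 250 bases before the RefSeq start (GRCm38.p6), the letters GAGGAA, the core that the myeloid factor PU.1 binds, are in capitals on either strand, for C1qb (chr4:136886201-136886450, minus strand) and C1qc (chr4:136892915-136893164, minus strand).
C1qb: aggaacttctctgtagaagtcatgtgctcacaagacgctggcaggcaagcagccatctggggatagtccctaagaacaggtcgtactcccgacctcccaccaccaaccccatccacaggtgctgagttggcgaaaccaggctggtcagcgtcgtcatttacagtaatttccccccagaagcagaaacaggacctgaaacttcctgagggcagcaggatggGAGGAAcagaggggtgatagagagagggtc
C1qc: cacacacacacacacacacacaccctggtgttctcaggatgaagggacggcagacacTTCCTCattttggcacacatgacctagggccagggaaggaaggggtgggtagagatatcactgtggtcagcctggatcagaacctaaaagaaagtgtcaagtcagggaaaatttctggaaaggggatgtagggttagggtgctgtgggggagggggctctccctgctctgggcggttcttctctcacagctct
Each holds 1 match of these letters, which 23.3% of all 32851 promoters of that length hold, so the match is common. No other motif searched here has letters in either window. No promoter was matched for C1qa.

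The lectin pathway is started by mannose-binding lectins, which bind sugars on microbes. Mouse liver makes both the A form, from Mbl1, and the C form, from Mbl2. Mbl2 had the largest positive difference of the complement genes, and its lowest, median and highest log2 intensities were 15.28, 15.56 and 15.83 in Floxed mice and 15.48, 15.70 and 15.95 in LKO mice. The LKO range sat inside the upper part of the Floxed range and above it, and Floxed 1 (15.30) and Floxed 2 (15.28) were the low mice. The difference was 0.18 ± 0.11 (SE), with a 95% interval of -0.05 to 0.42, limma adjusted p = 0.746, and a two-sided exact permutation p of 0.117. It passed the unadjusted limma threshold without the array of Floxed 5, the highest of its group (0.25), and was 0.02 within slide 2.

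For Mbl1 the values were 12.17, 12.50 and 12.58 in Floxed mice and 12.34, 12.52 and 12.60 in LKO mice, a difference of 0.04 ± 0.09 (SE) with limma adjusted p = 0.975. The proteases that travel with these lectins had small differences, Masp1 at -0.09 ± 0.13 (SE) and Masp2 at 0.05 ± 0.09 (SE). All 3 probes of Masp2 gave differences between -0.00 and 0.05.

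C2, C3, C4b and Cfb make up the convertases, the enzymes that cut C3. C3, the component on which all pathways meet, was -0.03 ± 0.07 (SE), and its log2 intensities spanned only 18.00 to 18.24 in Floxed and 17.99 to 18.24 in LKO mice. C3 is among the brightest genes of the array, where quantile normalization gives arrays of equal rank the same value, and after 75th percentile scaling its difference was -0.05. C2, the protease of the classical convertase, differed by -0.14 ± 0.12 (SE), and Cfb, its counterpart in the alternative pathway, by -0.10 ± 0.10 (SE). C4b differed by 0.04 ± 0.13 (SE). Mouse C4b has a close relative, C4a, and hybridization of C4a to the C4b probe was not checked. None of the 4 was called, with limma adjusted p between 0.904 and 0.982.

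The last step, the membrane attack complex, held the most negative complement differences, none of which passed the test. C6, which joins the complex after C5b, had lowest, median and highest values of 10.57, 11.01 and 11.17 in Floxed mice and 9.91, 10.69 and 11.16 in LKO mice. Its LKO range covered nearly all of the Floxed range and went below it, with LKO 3 (10.56), LKO 4 (10.46) and LKO 5 (9.91) at the bottom. The difference was -0.29 ± 0.19 (SE), with an interval of -0.71 to 0.12, limma adjusted p = 0.803 and a two-sided exact permutation p of 0.193. Leaving out LKO 5 moved it to -0.14. Without the arrays labeled LKO 1 and LKO 2, whose Phgdh lay in the Floxed range, it was -0.46. C6 was the 1 member called in that fit, by the unadjusted limma threshold. That fit leaves no slide with both genotypes, so genotype and slide cannot be told apart in it. More of all tested genes were also called in it than in the main fit, as given below. Within slide 2 the C6 difference was 0.04.

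C8 joins the complex after C7, which is not analysed here, and is built of an alpha, a beta and a gamma chain, the last a small lipocalin from an unrelated gene family. C8a ranged over 12.84, 13.43 and 13.57 (lowest, median and highest) in Floxed mice and 12.12, 13.16 and 13.70 in LKO mice, the widest spread of all members, with a pooled SD of 0.42. C8b ranged over 13.13, 13.44 and 13.63 and 12.84, 13.27 and 13.63. C8g ranged over 16.71, 16.82 and 16.97 and 16.81, 16.89 and 16.98. The groups overlapped for each chain, and the C8g values of all mice lay within a narrow band. C8g lay at the 99.4th percentile of brightness, where quantile normalization can narrow the range. The differences were -0.26 ± 0.22 (SE) for C8a, -0.18 ± 0.13 (SE) for C8b and 0.06 ± 0.07 (SE) for C8g, with limma adjusted p of 0.889, 0.836 and 0.948. Without LKO 5, at 12.12 the lowest mouse, the difference of C8a was -0.08. A second, dimmer C8a probe gave -0.35 ± 0.19 (SE) and again had LKO 5 lowest. C9, which forms the wall of the pore, differed by -0.08 ± 0.15 (SE).

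The inhibitors of the cascade had small differences. Cfi, the protease that inactivates C3b and C4b, differed by -0.04 ± 0.10 (SE), its cofactor C4bp by -0.04 ± 0.08 (SE), and Serping1, the C1 inhibitor that also blocks factor XIIa and kallikrein, by -0.02 ± 0.11 (SE). Their limma adjusted p ran from 0.975 to 0.989.

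**Figure D2:**
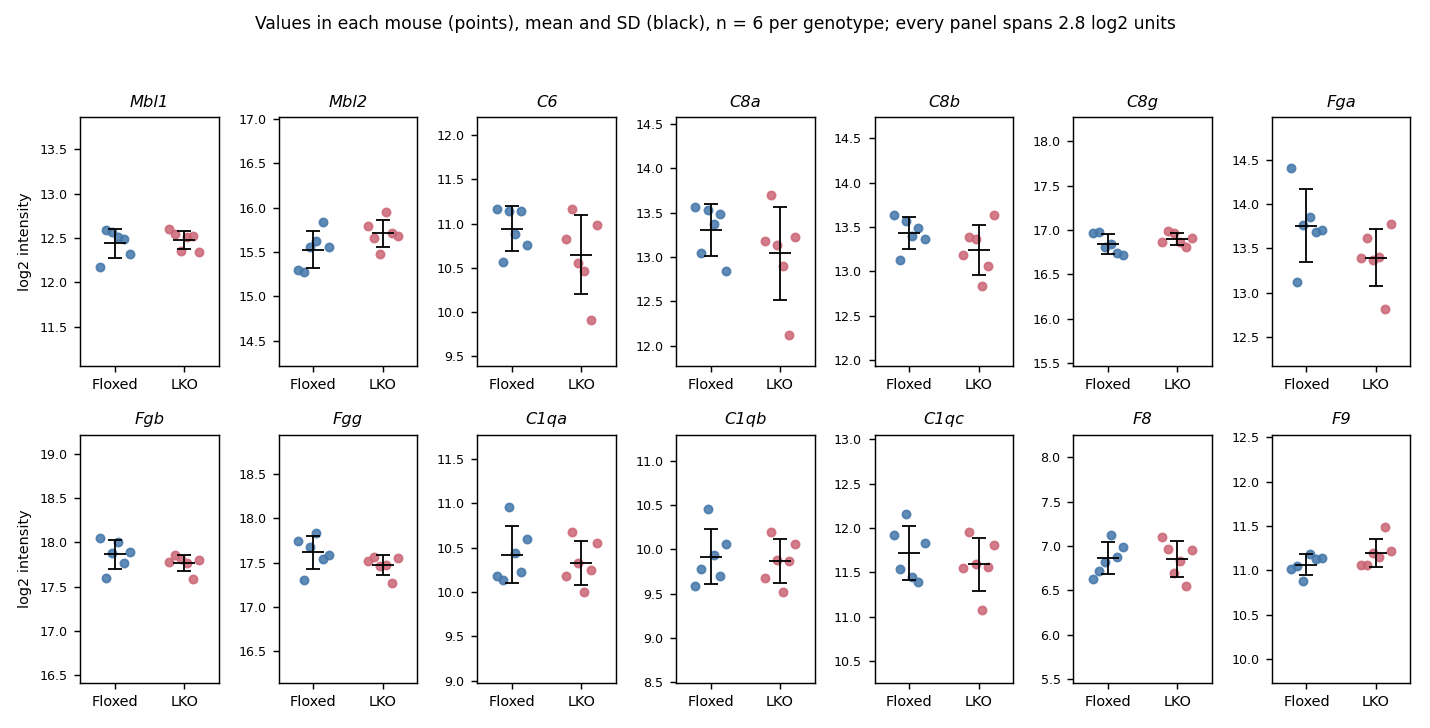
Log2 intensity (y axis) of 14 complement and coagulation transcripts in each Floxed (blue) and LKO (red) mouse, with mean and SD in black, 6 mice per genotype. The groups overlap in every panel, and LKO 5 is the low red point of C6 (9.91), C8a (12.12) and Fga (12.81).

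Fibrinogen, the substrate of coagulation, comes first. It is a dimer of Aα, Bβ and γ chains from Fga, Fgb and Fgg, neighbors on chromosome 3, and thrombin turns it into fibrin. Fga had the most negative difference of all members. Its lowest, median and highest values were 13.12, 13.73 and 14.41 in Floxed mice and 12.81, 13.40 and 13.77 in LKO mice. The single highest mouse was Floxed 1 (14.41) and the lowest LKO 5 (12.81), with Floxed 2 (13.12) below all LKO mice but LKO 5. The difference was -0.36 ± 0.20 (SE), a ratio of 0.779 with an interval of 0.581 to 1.04, limma adjusted p = 0.714 and a two-sided exact permutation p of 0.128.

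Single mice decided on which side of the threshold Fga lay. With 1 array left out its difference ran from -0.49 without Floxed 2, where it was called, to -0.23, and it was -0.23 without Floxed 1 and -0.24 without LKO 5. Within slide 2 it was -0.19. The mean of both Fga probes gave -0.55. The second, dimmer probe read 7.94 in LKO 5 and between 10.99 and 12.22 in all other mice. A gap that wide below the next array, over 3 on the log2 scale, occurred in LKO 5 for 8 of 20404 probes. The second probe's difference was -0.74 ± 0.57 (SE) over all mice and -0.13 without LKO 5.

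Fgb and Fgg are brighter probes with narrower ranges. They lay at the 99.8th and 99.7th percentiles of brightness, where quantile normalization can narrow ranges. Fgb spanned 17.59, 17.88 and 18.04 (lowest, median and highest) in Floxed mice and 17.58, 17.79 and 17.86 in LKO mice. Fgg spanned 17.30, 17.63 and 17.84 and 17.27, 17.50 and 17.57. For both chains LKO 5 and Floxed 2 were the low mice of their groups, and the other LKO values lay within the Floxed range. The differences were -0.10 ± 0.09 (SE) for Fgb (limma adjusted p = 0.905) and -0.14 ± 0.09 (SE) for Fgg (limma adjusted p = 0.812), and Fgg passed the unadjusted threshold without Floxed 2 (-0.20).

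The promoters of the fibrinogen chains are shown because the chains varied together from mouse to mouse. In the 250 bases before the RefSeq start (GRCm38.p6), capitals mark TTGCNNAA (C/EBP), CTGGGAA (the element of the acute phase through which IL-6 and STAT3 act) and GAGGAA (the PU.1 core) on either strand. The windows are chr3:83025903-83026152, plus strand, for Fga, chr3:83049864-83050113, minus strand, for Fgb, and chr3:83007474-83007723, plus strand, for Fgg.
Fga: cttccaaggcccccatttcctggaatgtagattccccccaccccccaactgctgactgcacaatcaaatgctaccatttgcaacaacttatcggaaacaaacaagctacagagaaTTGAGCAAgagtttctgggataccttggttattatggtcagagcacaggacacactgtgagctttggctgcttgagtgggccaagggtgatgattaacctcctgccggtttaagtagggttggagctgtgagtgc
Fgb: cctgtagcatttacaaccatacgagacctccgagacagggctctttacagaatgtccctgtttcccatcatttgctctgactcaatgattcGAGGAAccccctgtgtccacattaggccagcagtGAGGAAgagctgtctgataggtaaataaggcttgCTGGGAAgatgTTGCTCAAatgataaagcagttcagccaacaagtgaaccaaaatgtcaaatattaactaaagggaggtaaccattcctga
Fgg: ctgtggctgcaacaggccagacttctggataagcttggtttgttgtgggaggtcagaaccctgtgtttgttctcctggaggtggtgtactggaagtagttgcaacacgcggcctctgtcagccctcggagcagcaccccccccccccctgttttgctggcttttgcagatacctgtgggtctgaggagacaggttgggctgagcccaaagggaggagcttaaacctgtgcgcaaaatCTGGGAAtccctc
Fga holds 1 match of the C/EBP letters, Fgb holds all 3 motifs with GAGGAA at 2 places, and Fgg holds CTGGGAA alone, 13 bases before the start. These motifs do not overlap in the 3 windows. Over the 29 members with a matched promoter, the C/EBP letters were found in 7, or 24.1% against 9.56% of all promoters, CTGGGAA in 4, or 13.8% against 9.1%, and GAGGAA in 4, or 13.8% against 23.3%. A match shows letters in a window and not binding.

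The vitamin K dependent zymogens F2 (prothrombin), F7, F9 and F10 become the proteases that generate thrombin. F9 had the largest positive difference of the coagulation genes. Its lowest, median and highest values were 10.88, 11.09 and 11.19 in Floxed mice and 11.06, 11.17 and 11.49 in LKO mice. The groups overlapped, with LKO 3, LKO 6 and, at 11.49, LKO 5 above the Floxed range. The difference was 0.13 ± 0.09 (SE) with limma adjusted p = 0.824 and a two-sided exact permutation p of 0.132, and it was -0.08 within slide 2. F2 differed by 0.03 ± 0.08 (SE), F7 by -0.00 ± 0.12 (SE) and F10 by -0.07 ± 0.08 (SE). A second F10 probe, for another RefSeq transcript, gave 0.30 ± 0.20 (SE), the opposite sign.

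The contact phase proteins start clotting on negatively charged surfaces. Factor XII, from F12, and prekallikrein, from Klkb1, activate each other, kininogen from Kng1 carries prekallikrein and factor XI, and factor XI from F11 passes the signal on. The estimates were below 0 for all 4 and none passed the test, with F11 at -0.16 ± 0.13 (SE), F12 at -0.11 ± 0.09 (SE), Klkb1 at -0.13 ± 0.15 (SE) and Kng1 at -0.00 ± 0.07 (SE). For Klkb1 LKO 5 stood at 12.52 and all other mice between 13.09 and 13.55. Kng1 has a close relative, Kng2, and hybridization of Kng2 to the Kng1 probe was not checked.

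Factors V and VIII are the cofactors that speed up factor Xa and factor IXa. F8 was the dimmest member, and its lowest, median and highest values were 6.63, 6.85 and 7.13 in Floxed mice and 6.55, 6.89 and 7.10 in LKO mice. The ranges of the genotypes nearly coincided, with a difference of -0.02 ± 0.11 (SE) and limma adjusted p = 0.991. No relation of F8 was detected to the 12 endothelial markers across mice (Pearson r = 0.09, permutation p = 0.792, adjusted p = 0.864, Spearman's rho = 0.02, permutation p = 0.956, r = 0.23 without LKO 5 and Floxed 4), whose mean deviation spanned -0.10 to 0.13 in Floxed mice and -0.11 to 0.06 in LKO mice. Its second probe, for another transcript, was well above background on 4 arrays. F5 differed by 0.05 ± 0.11 (SE) with its main probe and by -0.16 ± 0.14 (SE) with the second, and F13b, the carrier subunit of the fibrin crosslinking enzyme factor XIII, by 0.05 ± 0.07 (SE).

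The genes for proteins that limit or dissolve clots had small differences. Protein C from Proc, which inactivates factors Va and VIIIa, differed by -0.05 ± 0.07 (SE), and Pros1, its cofactor protein S, by -0.10 ± 0.13 (SE). Antithrombin from Serpinc1, the main inhibitor of thrombin and factor Xa, differed by 0.06 ± 0.06 (SE) and had the smallest spread of all members, a pooled SD of 0.06. Serpinc1 lay at the 99.7th percentile of brightness, where quantile normalization can narrow the range. Serpind1, heparin cofactor II, differed by -0.00 ± 0.10 (SE). Plasminogen from Plg, the precursor of the fibrin-dissolving protease, differed by -0.06 ± 0.08 (SE), and its inhibitor Serpinf2, alpha 2-antiplasmin, by -0.09 ± 0.11 (SE). The limma adjusted p ran from 0.933 to 0.997 over these 6 genes.

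Single mice differed within both genotypes, and chains of one protein moved together to unequal degrees. Pearson's r was computed over the 12 arrays for 10 pairs of partners, and p values were adjusted over 12 relations, which include the macrophage and endothelial ones, both chosen after seeing the data. For fibrinogen r was 0.90 for Fga with Fgb (permutation p = 7e-05, adjusted p = 0.00021, Spearman's rho = 0.81, permutation p = 0.00251). It was 0.88 for Fga with Fgg (permutation p = 0.00027, adjusted p = 0.000648, rho = 0.93, permutation p = 5e-05). It was 0.95 for Fgb with Fgg (permutation p = 4e-05, adjusted p = 0.00016, rho = 0.90, permutation p = 0.00019). Without LKO 5 and Floxed 1, the extremes, these were 0.81, 0.87 and 0.94, so the chains moved together in the remaining mice as well. With slide means removed they were 0.88, 0.84 and 0.95.

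The C1q chains were unequal partners. C1qa and C1qb had r = 0.97 (permutation p = 1e-05, the smallest 100000 resamples can give, adjusted p = 0.00012, rho = 0.95, permutation p = 2e-05). C1qc followed less closely, at r = 0.79 with C1qa (permutation p = 0.00231, adjusted p = 0.00462, rho = 0.69, permutation p = 0.0172) and 0.74 with C1qb (permutation p = 0.00611, adjusted p = 0.0105, rho = 0.64, permutation p = 0.0275). Without the mice farthest from the median the values were 0.92, 0.59 and 0.41, so the relation of C1qc to C1qb rested in part on Floxed 3 and LKO 4. With slide means removed they were 0.97, 0.78 and 0.74. In Floxed 1 the C1qc value of 11.93 was among the highest while C1qa (10.18) and C1qb (9.58) were among the lowest.

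The C8 chains and the lectins were looser. C8a and C8b had r = 0.65 (permutation p = 0.0207, adjusted p = 0.031, rho = 0.78, permutation p = 0.00362), 0.71 without LKO 5 and LKO 2, and 0.59 with slide means removed. C8g, with its narrow range, had r = 0.29 with C8a (permutation p = 0.365, adjusted p = 0.438, rho = 0.30, permutation p = 0.344) and 0.03 with C8b (permutation p = 0.915, adjusted p = 0.915, rho = 0.03, permutation p = 0.938), neither past the test. Mbl1 and Mbl2 had r = 0.39 (permutation p = 0.211, adjusted p = 0.281, rho = 0.11, permutation p = 0.734), and -0.01 without Floxed 1 and Floxed 6. All these arrays share the normalization, which also ties genes to each other.

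**Figure D3:**
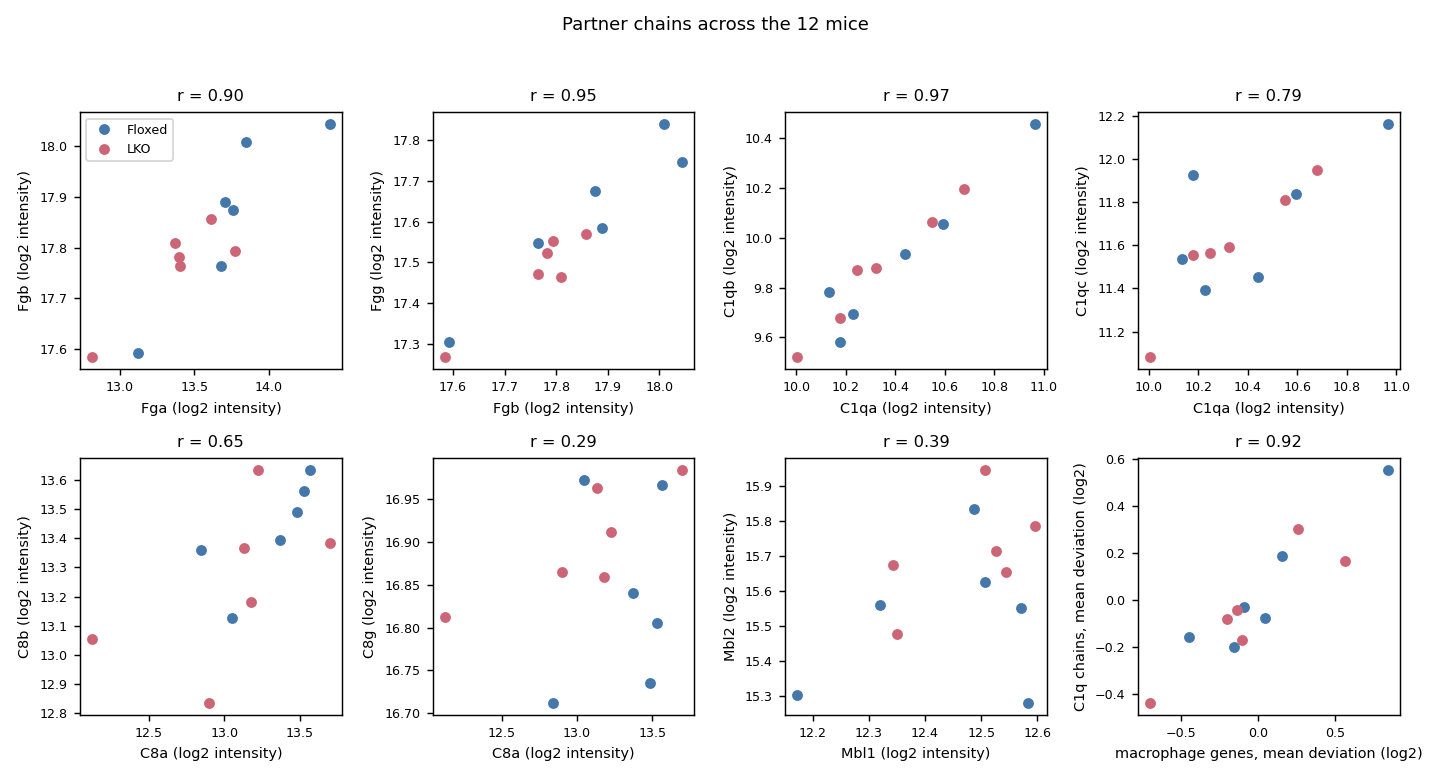
Each point is 1 mouse (Floxed blue, LKO red), with the log2 intensities of partner chains on the axes. The last panel sets the mean deviation of the C1q chains against that of 10 macrophage genes, both on the log2 scale. Points line up for fibrinogen, for C1qa with C1qb and for C1q with the macrophage genes, and scatter for C8a with C8g and for Mbl1 with Mbl2.

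Over all 741 pairs of members the median r was 0.24, and 28 pairs exceeded 0.8, while 35 lay below -0.5. These are given as a description, with no test, since pairs were picked after their values were seen. The closest relation of genes for different proteins was that of C6 with C8a (r = 0.94, and 0.87 without LKO 5), both of the membrane attack complex. C3 with Cfi, which inactivates its fragment, followed (r = 0.94), and then F10 with Serpinf2 (r = 0.92). At the other end were C4b with Mbl1 (r = -0.78), C8a with F9 (r = -0.78, and -0.45 without LKO 5) and Masp1 with Mbl2 (r = -0.76).

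The spread had a few mice at its ends. LKO 5 was the lowest mouse for 13 of the 39 genes (33.3%, against 17% of all genes) and Floxed 2 for 11 (28.2%, against 9.97%). Floxed 1 was the highest for 13 (33.3%, against 12.1%), among them Fga, C2, C4b (16.09), Serping1 (15.84) and Serpinf2 (16.28). LKO 5 and Floxed 2 are the arrays with the lowest raw intensities given above, and Floxed 1 comes next to them. A regulator of the acute phase also stood apart in Floxed 1, with Stat3 at 13.18 against 11.69 to 12.27 in the other mice. In LKO 5 Il6ra, a receptor chain for IL-6, was 10.13 against 11.20 to 12.60. Other regulators in LKO 5 went both ways. Cebpb (13.04), Cebpd (10.26), Foxa1 (8.88) and Foxa2 (11.48) were at their highest of the LKO mice. Cebpa (12.04), Foxa3 (8.93), Hnf4a (14.55), Il1r1 (7.16) and Il6st (9.24) were at their lowest. The part of intensity or of these genes in the members' values was not tested.

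**Figure D4:**
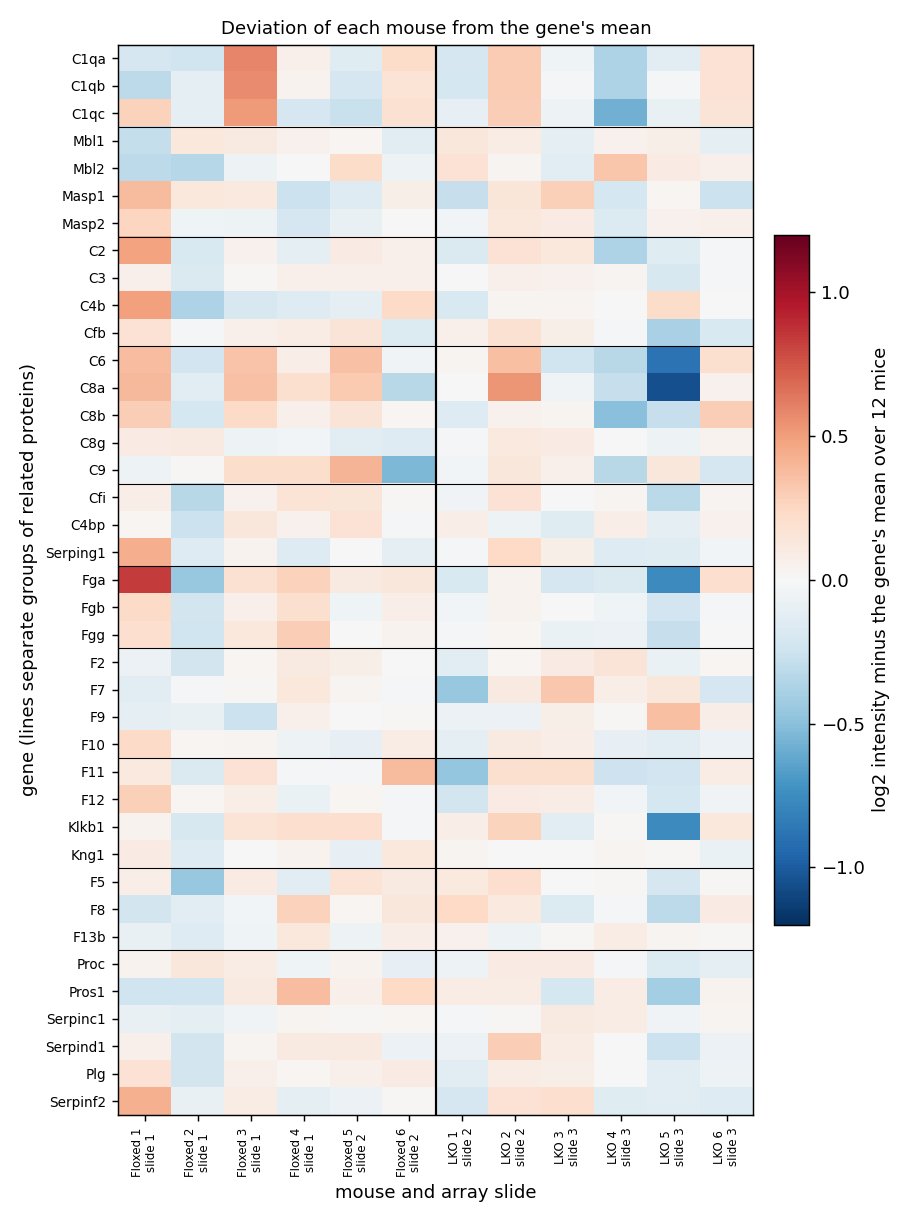
Deviation of each mouse (columns, with its slide) from the mean of the gene over all 12 mice, in log2 units (color), for the 39 genes (rows, lines separate groups of related proteins). The vertical line separates Floxed from LKO mice. Floxed 1 is mostly red, LKO 5 and Floxed 2 mostly blue, and the C1qa and C1qb rows resemble each other.

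Other genes of the same pathways, listed by function, were mostly not called either. Of 31 further complement genes tested, among them the proteases C1ra and C1s1, C5 (Hc) and vitronectin (Vtn), 1 was called, and it was higher in LKO mice. This was Cr2, a receptor for C3 fragments known from B cells, at 4.98 to 5.41 in Floxed mice and 4.88 to 6.06 in LKO mice, a difference of 0.49 ± 0.19 (SE, adjusted p = 0.486) in limma. All LKO mice of slide 3 lay above the Floxed range, the arrays labeled LKO 1 and LKO 2 did not, and within slide 2 the difference was -0.13. Of 7 lymphocyte markers measured none was called, 5 were lower in LKO mice and the median difference was -0.22. The B cell marker Ms4a1 differed by -0.40 ± 0.20 (SE, adjusted p = 0.636) in limma, in the opposite direction to Cr2. Within slide 2 the difference of Ms4a1 was 0.16, so its sign also changed there. Cd79a, a defining marker of B cells, was not well above background on all arrays.

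Of 24 further coagulation genes tested, 2 were called higher and 1 lower, against 4.92% and 3.43% of all tested genes. Gas6, a vitamin K dependent protein related to protein S that activates TAM receptors, ranged from 11.11 to 11.70 in Floxed mice and 11.33 to 12.73 in LKO mice, a difference of 0.53 ± 0.21 (SE, adjusted p = 0.486), with LKO 5 the highest mouse. Anxa2, a cell surface partner in plasmin formation, ranged from 10.84 to 11.28 in Floxed mice and 11.09 to 12.01 in LKO mice, a difference of 0.38 ± 0.17 (SE, adjusted p = 0.582). Its highest mice were LKO 4 (12.01) and LKO 5 (11.98). Plaur, the urokinase receptor, ranged from 4.18 to 4.95 in Floxed mice and 4.15 to 4.75 in LKO mice, a difference of -0.32 ± 0.14 (SE, adjusted p = 0.541). These p values are from limma. The ranges overlapped for all 3, and within slide 2 the differences were 0.12, 0.18 and 0.05. Plaur and, above, Cr2 read lower than every member. Others, among them Plat, Plau and F13a1, were not well above background on all arrays.

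The machinery that finishes and exports the factors had no called gene. Of the 5 vitamin K cycle genes, which include the gamma-carboxylase Ggcx and the reductase Vkorc1, none was called, and the median difference was 0.05. Of the 4 transport genes, which include the factor V and VIII cargo receptor of Lman1 and Mcfd2, none was called, with a median of -0.02. Of 13 transcriptional and cytokine regulators of liver plasma proteins measured, 2 were called, both lower in LKO mice. They were the forkhead factors Foxa1, at -0.66 ± 0.22 (SE, adjusted p = 0.391), and Foxa3, at -0.65 ± 0.16 (SE, adjusted p = 0.273), in limma. Within slide 2 their differences were -0.60 and -0.57. Foxa1 ranged from 8.52 to 9.83 in Floxed mice and 8.16 to 8.88 in LKO mice. Foxa3 ranged from 9.74 to 10.33 and 8.93 to 9.73, with no overlap, against 0.296% of all genes measured on every array. Of the 13 regulators 11 were lower in LKO mice and 2 higher, with a median of -0.24. Over all tested genes 3.43% were called lower. The part of these regulators in the members' values was not tested. Hnf4a (-0.13) and Cebpa (0.08) were not called.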

How the data were processed

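Total RNA of 12 livers was hybridized to single-color Agilent arrays. The authors deposited for each array spot intensity values from Agilent Feature Extraction (version 10.7.1.1 per the file headers, 9.5.1.1 per the submitters' processing notes), background-subtracted without normalization across arrays, and a table with quantile-normalized intensity values on a linear scale. The labels name TRIzol and a Promega column for the RNA, and the methods the RiboPure kit.

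From the deposited processed intensity, control spots (1377) were left out, and log2 values were quantile-normalized over the arrays. Outlier spots (0.298%) were set missing and spots of a probe averaged. Probes well above background on all 12 arrays (in at least 0.5 of their spots) were kept (20404 of 39429). Probes were named by RefSeq accession through a table of GRCm38.p6 (94.3% of 28389 matched), and the brightest probe stood for a gene. Coordinates of probes were not used. The authors' table lay within 0.1 of these log2 values for 99.98% of values. Genotypes were compared with limma 3.58.1 in R 4.3.3 (lmFit, eBayes, no covariates), with Benjamini-Hochberg adjustment over all 16915 genes. Single genes were also compared by exact permutation, two-sided, over 924 arrangements, which cannot give a p below 0.00216. Correlations used 100000 resamples. The fitting code was tested on simulated data. The number of arrays limits the precision, and saturated spots numbered 0.

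Values are given in full for members that were called or did not overlap (none), the largest rise and fall of each set, the chains of C1q, C8 and fibrinogen, Mbl1, Mbl2 and F8, and other pathway genes only where called. Members and lists were chosen with earlier results of these data known. Some items are not reported here. Alternatives covered scaling, background, the authors' table, filters, probes, slide, replicate number, thresholds, the methods' t-test and each array left out.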

Additional observations from a re-analysis of the deposited data

Results flagged for a closer look

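Within each genotype, 9 of 78 sets of values (every member in both genotypes) had a mouse standing apart from the other mice by a gap past Dixon's 95% critical share of the range. Chance alone marks about 1 in 20, or 3.9 of 78, and members that move together are not independent. The log2 intensities concerned were as follows.

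LKO 5 was the lowest of its genotype for C3 (17.99, next 18.16), for Fgb (17.58, next 17.76) and for Fgg (17.27, next 17.47), and the highest for F9 (11.49, next 11.21). Floxed 2 was the lowest for C3 (18.00, next 18.20) and for Cfi (14.93, next 15.27). Floxed 1 was the highest for Serping1 (15.84, next 15.44) and for Serpinf2 (16.28, next 15.94). LKO 6 was the lowest for Kng1 (17.76, next 17.84).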

How the results depend on the processing

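The count of called members was 0 for complement and 0 for coagulation under 75th percentile scaling, normexp, the authors' table, no filter, outlier spots kept, mean of probes, slide as a fixed or random block, adjusted p, a fold limit (log2 difference of 1 or more), and the methods' t-test before and after adjustment. With probes in place of genes, added after seeing the data, it was also 0. With each array left out it ranged from 0 to 1 for complement (Mbl2, without Floxed 5) and from 0 to 2 for coagulation (Fga and Fgg, without Floxed 2). Without the arrays labeled LKO 1 and LKO 2, also added after seeing the data, it was 1 for complement (C6) and 0 for coagulation. No slide then held both genotypes. The genes called over all tested genes numbered 1413, and 2791 without the filter, 317 with the slide as a fixed block, 2173 without the arrays labeled LKO 1 and LKO 2, 88 with the fold limit, 0 at an limma adjusted p below 0.05, 1 by the adjusted and 1234 by the unadjusted methods' t-test, and 1103 to 1838 with an array left out. Fewer arrays, or more genes without the filter, are part of those alternatives, and the cause of the fall with the slide block was not tested.

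The median difference stayed below 0 in the alternatives run for both sets, except that complement was 0.04 within slide 2, which the fixed slide block equals since slide 2 alone holds both genotypes. There coagulation was -0.02, and 20 of 39 members changed sign. With an array left out the medians ranged from -0.11 to -0.02 for complement and from -0.08 to -0.03 for coagulation, and without the arrays labeled LKO 1 and LKO 2 they were -0.09 and -0.08. The genotypes share replicate numbers, and same-numbered mice have adjacent animal numbers in the labels, which do not say whether they are littermates. The deviations of same-numbered mice, which lay on different slides in every pair, correlated at 0.01, -0.19, 0.15, 0.32, -0.24 and 0.12 over genes, so a pairing was neither shown nor excluded. With a replicate block the genes called over all tested genes numbered 1428 with 0 members of either set, and the medians were -0.05 and -0.06.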
